A study of Mus musculus with 2 samples.

Results

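The 6 SLAM family genes examined here were Slamf1, Cd48, Ly9, Cd84, Slamf6 and Slamf7, chosen by name out of 31053 genes in the single-cell matrix, and they were followed in 3986 of 4688 cells. These cells had under 10% of their UMIs (unique molecular identifiers, each standing for a captured RNA molecule) from mitochondrial genes, over 1500 detected genes and values for antibody tags. CITE-seq reads the transcriptome and DNA-barcoded antibodies from the same droplet, so the transcripts of Slamf1 and Cd48 could be set beside tags against their own proteins, CD150 and CD48.

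The cells were LSK (lineage-negative, Sca-1+, c-Kit+ marrow progenitors) of C57BL/6JRj mice, 1 library from old mice of 22 to 28 months and 1 from young mice of 3 to 5 months. Each library was made from a pool of mice, and the labels name no treatment or transgene. Cells of the 2 libraries were told apart by the suffix of their barcodes. The labels do not say which suffix belonged to which age, so no comparison of ages was made, and with 1 library per suffix no difference below was tested. All intervals are exact 95% intervals that cover counting error only.

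SLAM family receptors are immunoglobulin-superfamily proteins on blood cells, and most of them bind a copy of themselves on the neighbouring cell. CD150 is the founding member and is self-binding. CD48 is held in the membrane by a lipid anchor and binds CD244, another family member. In mouse marrow, cells that carry CD150 and lack CD48 are enriched for long-term haematopoietic stem cells, while CD48 is carried by most progenitors with less self-renewal, which is why the 2 antibodies are used together in sorting.

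The 6 genes form a cluster on chromosome 1. In the GENCODE M21 annotation of GRCm38 they run over 364.547 kb in the order Ly9 (171588624 to 171607410, minus strand), Slamf7 (171632403 to 171653035, minus strand), Cd48 (171682009 to 171705258, plus strand), Slamf1 (171767127 to 171801184, plus strand), Cd84 (171839697 to 171890718, plus strand) and Slamf6 (171917515 to 171953170, plus strand). The span touches 8 protein-coding genes, the other two being Cd244a, listed as Cd244 in the matrix, and Gm10521. All 18787 bases of Ly9 lie within Cd244a on the opposite strand, with 0 exonic bases in common. Whether the counting used strand is not given in the sources used here, so reads of these 2 genes may not be fully separated.

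The promoters of Slamf1, Cd48 and Cd84, the 3 members seen in over 10% of cells for which the promoter table has an entry (Ly9 has none), are shown as the 250 bases before the RefSeq start (GRCm38.p6, all on the plus strand). Capitals mark, on either strand, the core GATAA of GATA factors, the core GGAAG of ETS factors, and TGTGGT, the core of RUNX factors, all families active in blood cells.
Slamf1, chr1:171766882-171767131: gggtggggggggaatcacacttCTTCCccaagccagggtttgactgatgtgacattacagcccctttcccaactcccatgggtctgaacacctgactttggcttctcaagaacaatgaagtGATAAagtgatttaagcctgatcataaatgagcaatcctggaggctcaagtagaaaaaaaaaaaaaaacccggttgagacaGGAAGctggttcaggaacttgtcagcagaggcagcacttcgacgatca
Cd48, chr1:171681742-171681991: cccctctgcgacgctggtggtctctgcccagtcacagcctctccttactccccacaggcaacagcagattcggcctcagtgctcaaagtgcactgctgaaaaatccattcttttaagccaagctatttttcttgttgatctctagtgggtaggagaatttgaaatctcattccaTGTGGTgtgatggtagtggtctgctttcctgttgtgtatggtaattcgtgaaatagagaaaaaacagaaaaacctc
Cd84, chr1:171839447-171839696: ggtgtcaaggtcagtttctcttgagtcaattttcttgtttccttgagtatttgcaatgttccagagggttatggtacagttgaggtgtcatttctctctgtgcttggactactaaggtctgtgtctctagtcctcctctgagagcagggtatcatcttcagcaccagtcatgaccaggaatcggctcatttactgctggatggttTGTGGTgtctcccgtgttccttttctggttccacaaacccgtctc
The Slamf1 window held 1 GATAA and 2 GGAAG, and the Cd48 and Cd84 windows each held 1 TGTGGT. Among 32851 promoter windows of the same length, 22.6% held GATAA, 64.1% held GGAAG and 14.0% held TGTGGT. The TATA box TATAAA, the CCAAT box and the E-box forms CAGGTG or, with another centre, CAGCTG were searched as well. Of these only CAGGTG occurred, 1 time, in the Slamf1 window. These letter matches are descriptions and were not tested as binding sites.

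Suffix 1 held 1497 of the cells with a median of 15240 UMIs, and suffix 2 held 2489 with a median of 14891. No barcode occurred under both suffixes (0 shared). The tag levels differed between the libraries. The median CD48 tag count was 462 in suffix 1 and 135 in suffix 2, the median CD150 tag count was 7 and 18, and the median number of tag reads that matched no antibody was 41 and 26. Of the sorting markers, Kit had UMIs in 83.4% and Ly6a (Sca-1) in 91.6% of cells. Markers of other cell types were mixed. In the T and NK cell list Cd3e was at 0 UMIs, Cd3g at 2 and Cd3d at 8, but Nkg7 had UMIs in 53.4% and Klrb1c in 8.38% of cells. In the B and plasma cell list Ms4a1 had 17 UMIs, but Cd79b had UMIs in 49.2% and Igkc in 42.1% of cells. In 12 cells, 2 of suffix 1 and 10 of suffix 2, over 10% of UMIs came from immunoglobulin genes. Scrublet called 37 doublets, 5 in suffix 1 and 32 in suffix 2.

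Over all cells the CD150 and CD48 tags ran in opposite directions, with a Spearman rho between them of -0.25 in suffix 1 and -0.61 in suffix 2. Cells were therefore ranked by each tag within each suffix and cut into 10 bins (deciles). Cells with equal counts shared a bin, so the bins were not of equal size. Transcript levels are given as CPM, the summed UMIs of the gene scaled to 1000000 summed UMIs of the bin.

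Slamf1, which encodes CD150, was seen in the fewest cells among the 4 members detected in over 10% of cells. It had 86 UMIs in suffix 1, where 64 cells (4.28%) held at least 1, and 675 UMIs in suffix 2, where 428 cells (17.2%) did. A single cell held at most 4 UMIs in suffix 1 and 6 in suffix 2.

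The Slamf1 transcript was concentrated in the cells with the most CD150 tags. In suffix 2 its level across CD150 deciles, from lowest to highest, was 0.45, 0.35, 0, 0, 0.58, 4.15, 10.8, 27.4, 57.6 and 71.2 CPM. It stayed under 1 CPM up to the fifth decile and was then higher at every step, each step with an interval of the ratio to the bin before that left out 1. In suffix 1 the corresponding levels were 0, 0, 0.23, 0, 0, 0.39, 1.66, 3.07, 2.66 and 23.3 CPM. Here the highest bin held 63 of the 86 UMIs and 44 of the 64 cells with one, and the step into it was 8.76-fold (4.01 to 22.7).

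**Figure D1:**
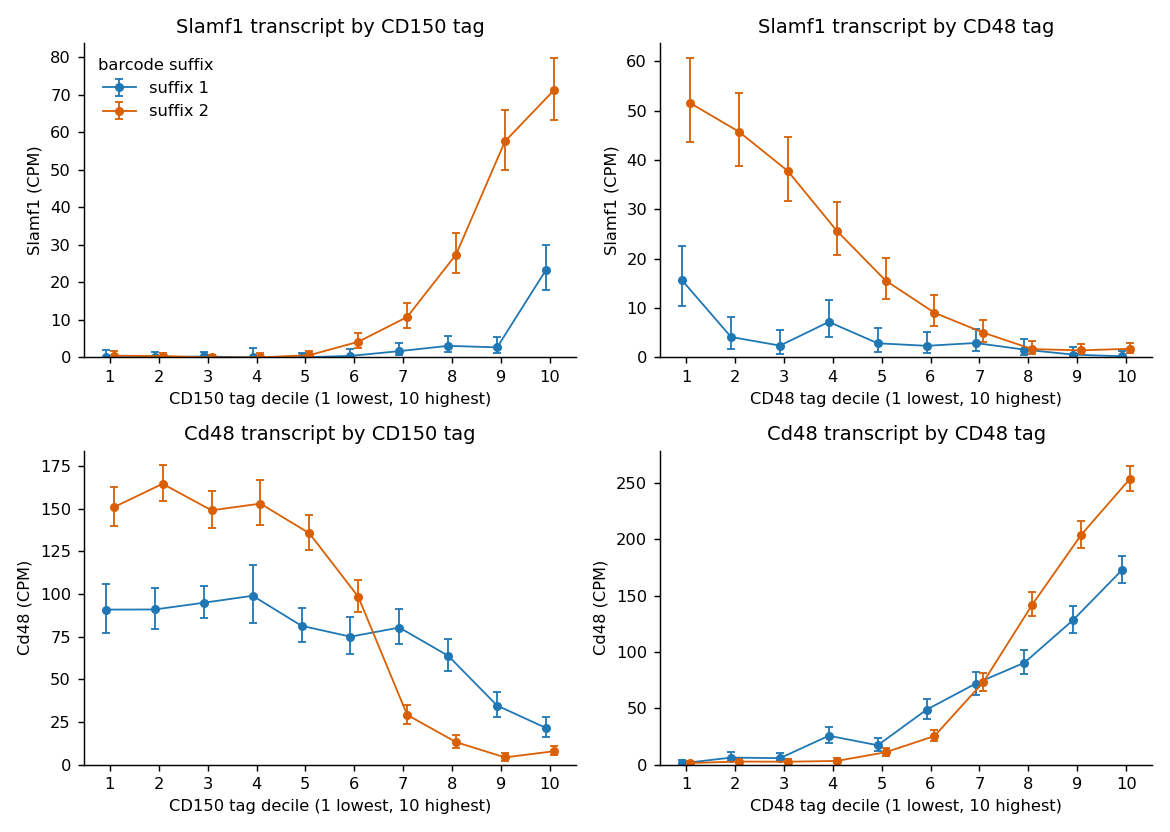
Level of the Slamf1 (top) and Cd48 (bottom) transcripts in CPM against the decile of the CD150 (left) and CD48 (right) tag, for both barcode suffixes. Points are the values of a bin and bars are exact 95% Poisson intervals. Each transcript is higher in the highest than in the lowest decile of its own tag and lower for the other tag, and Slamf1 reaches 71.2 CPM in the highest CD150 decile of suffix 2 against 23.3 CPM in that of suffix 1.

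Highest over lowest CD150 decile, Slamf1 was 158-fold higher in suffix 2 (43.4 to 1311), from 300 against 2 UMIs. In suffix 1 the lowest decile held 0 UMIs, so the ratio was a bound of at least 13.8-fold, set against a floor of 3 UMIs in that bin. The share of cells with a Slamf1 UMI gave the same picture. In the highest CD150 decile it was 66.4% (60.2 to 72.2) in suffix 2 and 29.1% (22.0 to 37.1) in suffix 1. In the lowest it was 0.775% (0.0940 to 2.77) of 258 cells in suffix 2 and 0 of 117 cells in suffix 1 (a floor of 3 cells, in place of an exact limit, is 2.56%). The median depth of these bins was 15104 and 15133 UMIs at the top and 14904 and 13612 at the bottom, and with every cell thinned to 9000 UMIs the shares in the highest decile were 46.4% and 16.9%. A stricter cell filter (under 5% mitochondrial UMIs, over 2500 genes) left few cells and bounds of at least 6.64-fold in suffix 2 and at least 2.86-fold in suffix 1.

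Read the other way, CD150 tags were counted in cells sorted by how many Slamf1 UMIs they held. In suffix 2 the 2061 cells without a Slamf1 UMI had a median of 10 CD150 tags, the 269 cells with 1 UMI had 687, the 97 cells with 2 had 854 and the 62 cells with 3 or more had 911. In suffix 1 the medians were 7 tags in 1433 cells, 362 in 51, 768 in 5 and 940.5 in 8. The main step was between 0 UMIs and 1, and the quartiles of the groups with 1 or more UMIs overlapped in suffix 2. Of the cells with a Slamf1 UMI, 68.0% in suffix 2 and 76.6% in suffix 1 were in the top 2 CD150 deciles. Across cells, Slamf1 UMIs divided by the total UMIs of the cell had a Spearman rho with CD150 tags of 0.53 in suffix 2 and 0.29 in suffix 1. Both values come from the same droplet, and most cells held 0 Slamf1 UMIs.

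**Figure D2:**
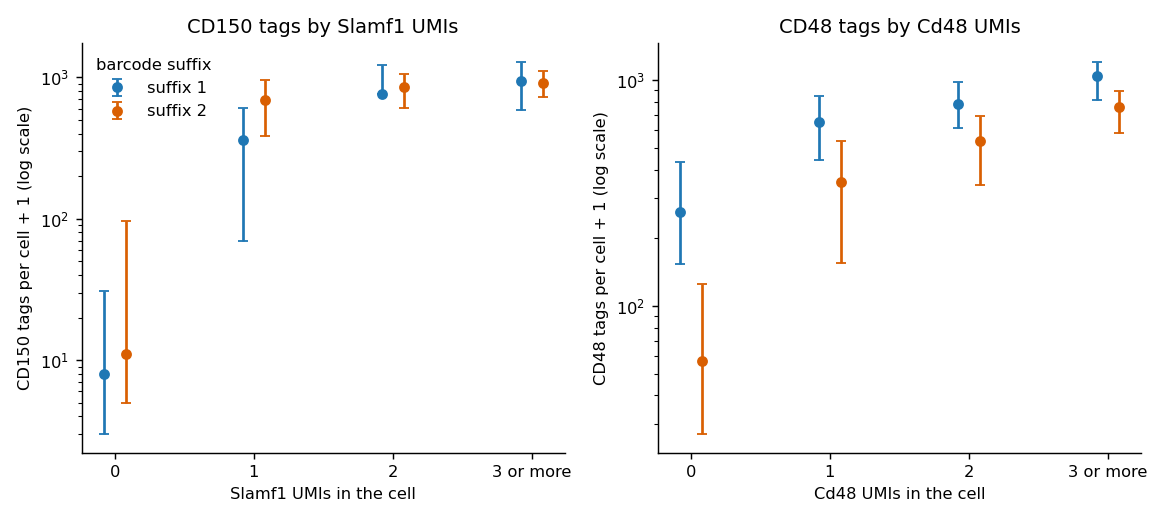
Tags per cell (median, with bars from the lower to the upper quartile, 1 added, log scale) in cells grouped by their number of Slamf1 UMIs (left, CD150 tags) or Cd48 UMIs (right, CD48 tags). In suffix 2 the CD150 median is 10 tags without a Slamf1 UMI and 687 with 1, while the CD48 median climbs more evenly with the Cd48 UMIs, from 56 to 354, 536 and 757.5.

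Cd48, which encodes the CD48 ligand, was held by 43.0% of cells in suffix 1 (1970 UMIs) and 38.7% in suffix 2 (4215 UMIs). Its transcript was higher in the upper than in the lower CD48 deciles in both libraries. In suffix 2 the level from the lowest to the highest CD48 decile was 1.40, 2.69, 2.54, 3.24, 10.9, 25.3, 73.2, 141.9, 203.8 and 253.6 CPM. In suffix 1 it was 1.11, 6.19, 5.72, 25.6, 17.1, 48.7, 71.8, 90.4, 128.4 and 172.8 CPM. From the fifth decile upward every step was upward with an interval that left out 1 in both suffixes. Below that, neighbouring bins of suffix 2 did not differ beyond counting error up to the fourth decile.

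Highest over lowest CD48 decile, Cd48 was 155-fold higher in suffix 1 (42.8 to 1283) and 181-fold higher in suffix 2 (70.5 to 664). The lowest bins held only 2 and 4 UMIs, so the size of these folds was poorly fixed. In the highest bin 98.0% of cells in suffix 1 and 98.8% in suffix 2 had a Cd48 UMI, against 1.34% and 1.65% in the lowest. The highest bins were also deeper, with median UMIs per cell of 29254 and 29227 against 11936 and 11632 in the lowest. With cells thinned to 9000 UMIs the share was 77.3% of 150 cells against 1.63% of 123 in suffix 1, and 86.8% of 250 against 0.488% of 205 in suffix 2. When deciles were drawn within 5 bins of UMIs per cell, the fold was 14.8 in suffix 1 and 85.5 in suffix 2.

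CD48 tags followed the number of Cd48 UMIs more gradually than CD150 tags followed Slamf1. In suffix 1 the median was 259 tags in 853 cells with 0 Cd48 UMIs, 653 in 229 cells with 1, 782 in 125 cells with 2 and 1040.5 in 290 cells with 3 or more. In suffix 2 it was 56 tags in 1527 cells, 354 in 230, 536 in 168 and 757.5 in 564. Cells with more UMIs of the gene were deeper as a whole, with a median of 26602 total UMIs at 3 or more Cd48 UMIs in suffix 1 and 24388 in suffix 2. Spearman rho of Cd48 UMIs, divided by the total UMIs of the cell, with CD48 tags was 0.69 in suffix 1 and 0.77 in suffix 2. With the reads that matched no antibody it was 0.53 and 0.31, and the part of staining depth in the relation was not tested.

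Each of the 2 transcripts was lower in the highest than in the lowest decile of the other protein's tag. Slamf1 was 51.6 CPM in the lowest CD48 decile of suffix 2 and 1.74 CPM in the highest, 29.6-fold lower (16.8 to 57.0). In suffix 1 it was 15.6 CPM against 0.22 CPM, the latter a single UMI, which gave a ratio of 69.8 with an interval of 11.5 to 2853. The bins between did not fall at every step in suffix 1, where Slamf1 was 2.38 CPM in the third CD48 decile and 7.18 CPM in the fourth, 3.01-fold higher (1.05 to 10.5). Cd48 was between 149.1 and 164.6 CPM over the first 4 CD150 deciles of suffix 2 and then dropped to 98.4, 29.1 and 13.2 CPM in the sixth, seventh and eighth. Highest against lowest CD150 decile, Cd48 was 19.3-fold lower in suffix 2 (13.6 to 28.2) and 4.23-fold lower in suffix 1 (3.12 to 5.82). With the scrublet doublets left out, the highest CD150 decile of suffix 2 held 6 Cd48 UMIs instead of 33 and Cd48 was 99.9-fold lower, and the highest CD48 decile held 3 Slamf1 UMIs instead of 13 and Slamf1 was 124.6-fold lower. Over 13 alternatives Slamf1 was 7.31-fold to 406.6-fold lower along CD48 in suffix 2. Over 12 it was 8.17-fold to 111.5-fold lower in suffix 1, the least of these a bound. The stricter cell filter left too few UMIs for a ratio there. Cd48 was 14.9-fold to 165.3-fold lower along CD150 in suffix 2 and 3.25-fold to 29.8-fold lower in suffix 1, so that the directions held and the sizes were poorly fixed. In suffix 1 it remained between 63.8 and 99.0 CPM through the eighth decile and was 21.5 CPM in the tenth.

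UMIs of both transcripts were found in 16 cells of suffix 1 (1.07%) and 41 of suffix 2 (1.65%). Free RNA can give a cell a UMI of a gene that it does not express. Igkc, for example, was counted in 42.1% of cells although 98.1% of its UMIs lay in the 12 immunoglobulin-rich cells. Among cells with a Slamf1 UMI, Cd48 was counted in 16 of 64 (25%, 15.0 to 37.4) in suffix 1 and 41 of 428 (9.58%, 6.96 to 12.8) in suffix 2, at median depths of 14904 and 14507.5 UMIs. In the lowest CD48 deciles, at the lower depths given above, the share was 1.34% and 1.65%. The part of free RNA in the cells with both was not tested. Their tags lay between those of cells with either transcript alone. In suffix 2 the median CD150 count was 237 in cells with both, 786 in 387 cells with Slamf1 only and 6 in 921 cells with Cd48 only, and the median CD48 count was 398, 34 and 641. In suffix 1 the CD150 medians were 216.5, 605 and 5 and the CD48 medians 685, 152.5 and 848. Scrublet doublets made up 7 of the 41 cells with both in suffix 2 and 0 of the 16 in suffix 1. Neither transcript was seen in 805 cells of suffix 1 and 1140 of suffix 2, with median depths of 13406 and 12920 UMIs against 21772 and 21948 in cells with both.

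The 2 tags were also crossed in 3 bins each (low, middle and high, by rank within the suffix). Within the high CD150 bin of suffix 2, Slamf1 was 57.2 CPM in the low CD48 bin (572 cells), 40.2 CPM in the middle (226 cells) and 18.5 CPM in the high bin (34 cells, 21 UMIs). In suffix 1 the same 3 groups held 12.2, 9.45 and 3.66 CPM. CD150 was not equal in these groups, with median tag counts of 710, 576.5 and 414 in suffix 2 and 115.5, 63.5 and 65 in suffix 1, so the Slamf1 levels cannot be assigned to CD48 alone. Within the high CD48 bin, Cd48 was 208.7, 203.0 and 94.0 CPM from the low to the high CD150 bin in suffix 2, and 147.3, 130.1 and 104.4 CPM in suffix 1. The median CD48 tag counts of these groups were 673, 740.5 and 617.5 in suffix 2 and 954, 985 and 1041 in suffix 1.

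**Figure D3:**
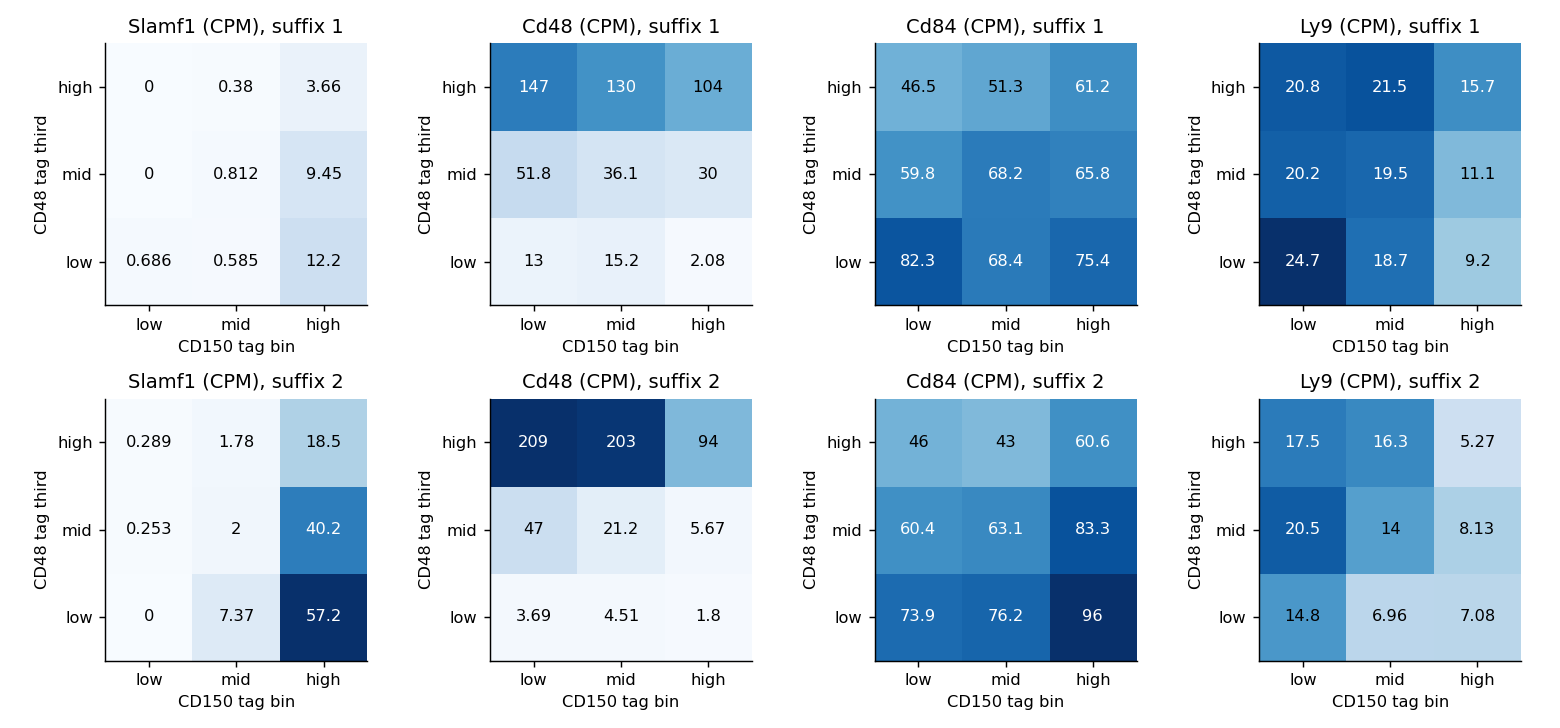
Levels of Slamf1, Cd48, Cd84 and Ly9 in CPM (printed in each square, darker for higher, 1 colour scale per gene) in cells crossed by 3 bins of the CD150 tag (horizontal) and 3 of the CD48 tag (vertical), suffix 1 above and suffix 2 below. Slamf1 is highest at high CD150 and low CD48 in both libraries (12.2 and 57.2 CPM), Cd48 at low CD150 and high CD48 (147.3 and 208.7 CPM).

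Deciles are relative to each library, so the transcripts were also read at equal numbers of tags. Among cells with 300 to 999 CD150 tags, Slamf1 was 21.4 CPM in 101 cells of suffix 1 and 48.2 CPM in 566 cells of suffix 2, a ratio of 2.25 (1.62 to 3.19). At 1000 or more CD150 tags it was 58.3 CPM in 21 cells and 76.5 CPM in 141, a ratio of 1.31 (0.833 to 2.17) whose interval held 1. Among cells with 300 to 999 CD48 tags, Cd48 was 64.8 CPM in suffix 1 and 177.2 CPM in suffix 2, a ratio of 2.74 (2.54 to 2.95), and at 1000 or more it was 159.5 and 273.4 CPM, a ratio of 1.71 (1.56 to 1.89). At 100 to 299 tags the ratio was 3.69 (1.71 to 9.11) for Slamf1 and 2.20 (1.62 to 3.04) for Cd48. The level was higher in suffix 2 in all 6 of these ranges, with an interval that left out 1 in 5. Below 100 tags few UMIs were counted, and every ratio that could be formed had an interval that held 1. The libraries differed in staining, in the reads that matched no antibody and in the age of the mice, which cannot be told apart here.

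Cd84, a self-binding family receptor found on many blood cells, was the most widely detected member. It was held by 60.6% of cells in suffix 1 (1661 UMIs) and 62.2% in suffix 2 (2770 UMIs). It followed the direction of Slamf1, but over a much smaller range. In suffix 2 its level was between 46.6 and 56.3 CPM in the lower 6 CD150 deciles and between 76.9 and 95.9 CPM in the upper 4, and the 2 sets of bins did not overlap. Highest over lowest it was 1.92-fold (1.62 to 2.27). In suffix 1 it was 62.1 CPM in the lowest and 74.4 CPM in the highest CD150 decile, 1.20-fold with an interval that held 1 (0.945 to 1.53).

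Along the CD48 tag Cd84 was lower in the highest decile than in the lowest in both libraries, but in suffix 1 this depended on the processing. It was 85.3 CPM in the lowest and 50.8 CPM in the highest CD48 decile of suffix 1, 1.68-fold lower, the ratio of highest to lowest being 0.595 (0.483 to 0.736). In suffix 2 it was 96.8 and 37.3 CPM, a ratio of 0.386 (0.325 to 0.457). The interval of suffix 1 held 1 under 6 alternatives. The ratio was 0.875 (0.705 to 1.08) with deciles drawn within bins of depth, 0.896 (0.718 to 1.12) with tags divided by the reads that matched no antibody, 0.840 (0.621 to 1.14) without cells that held a UMI of Mki67, Top2a, Ube2c or Birc5, and 0.776 (0.563 to 1.07) with depth bins and without those cells. It was 0.635 (0.364 to 1.12) under the stricter cell filter and 0.629 (0.348 to 1.27) with deciles over both libraries together. In suffix 2 the first 3 of these gave 0.602, 0.485 and 0.638, with intervals that left out 1. The plain share of cells with a Cd84 UMI did not follow the CPM, at 61.7% against 68.7% in suffix 1, in bins of unequal depth. Thinned to 9000 UMIs the share was 50.4% in the lowest and 35.3% in the highest bin of suffix 1, and 58.0% and 28.0% in suffix 2.

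**Figure D4:**
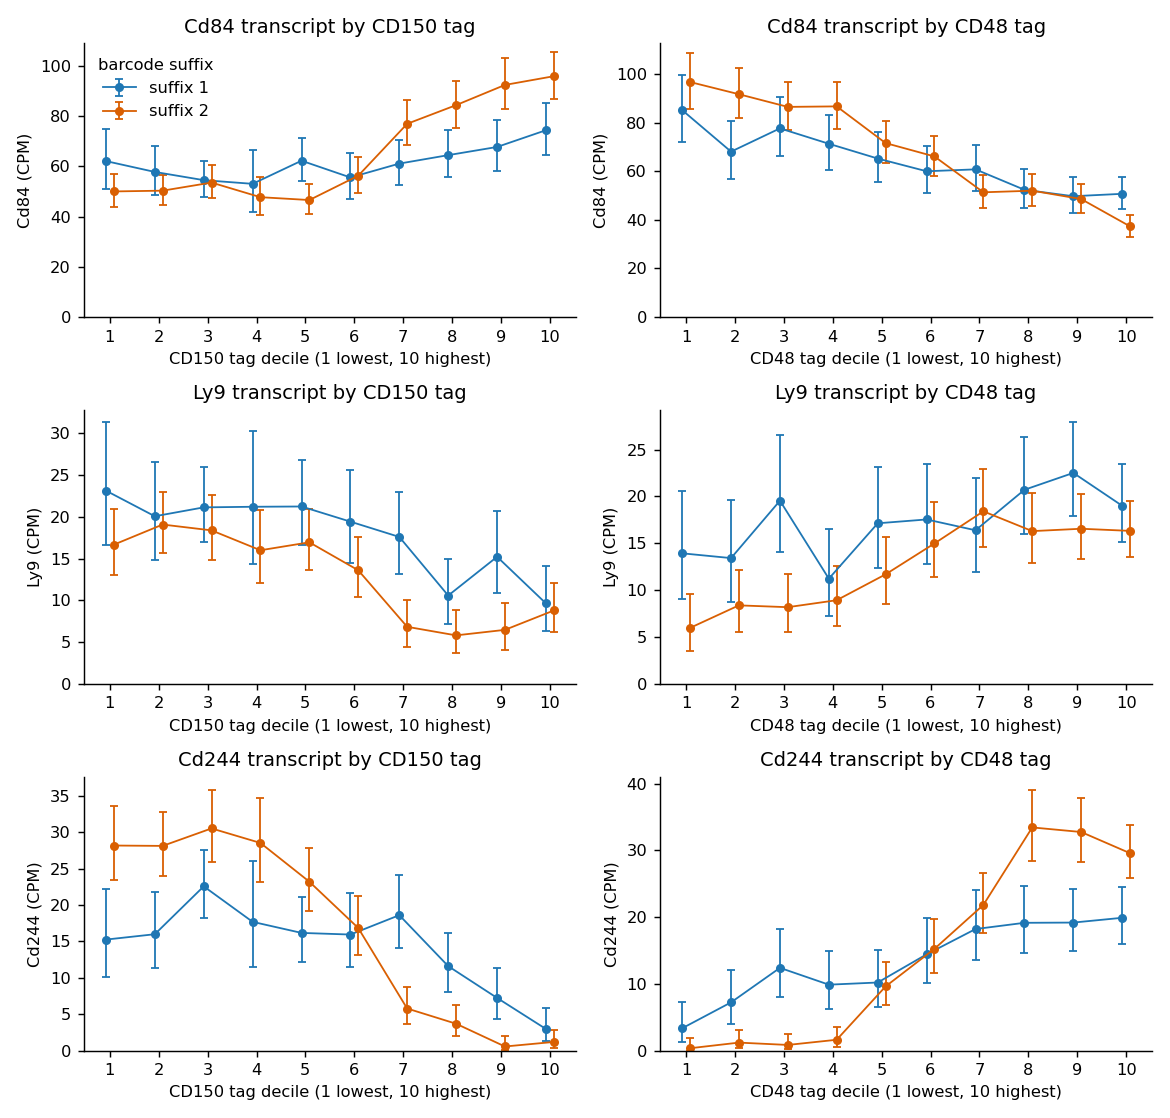
Levels of Cd84, Ly9 and Cd244 in CPM against the decile of the CD150 (left) and CD48 (right) tag for both barcode suffixes, with exact 95% Poisson intervals. In suffix 2 Cd84 ends at 95.9 CPM in the highest CD150 decile and 37.3 CPM in the highest CD48 decile, while Ly9 and Cd244 run the other way.

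Ly9, the self-binding receptor also called CD229, was held by 25.7% of cells in suffix 1 (481 UMIs) and 19.5% in suffix 2 (584 UMIs). It was lower at high CD150 in both libraries. In suffix 2 it was between 13.6 and 19.1 CPM in the lower 6 CD150 deciles and between 5.80 and 8.78 CPM in the upper 4. In suffix 1 it was between 17.6 and 23.1 CPM in the lower 7 and between 9.62 and 15.2 CPM in the upper 3. The ratio of highest to lowest was 0.416 (0.244 to 0.696) in suffix 1 and 0.527 (0.345 to 0.792) in suffix 2. Along CD48, Ly9 was 2.74-fold higher at the top in suffix 2 (1.64 to 4.85), at 16.3 against 5.96 CPM. In suffix 1 it was 19.0 against 13.9 CPM, 1.36-fold with an interval that held 1 (0.865 to 2.22).

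In the crossed bins Ly9 was also read among cells with few CD48 tags. In the low CD48 bin of suffix 1, Ly9 was 24.7 CPM at low CD150, 18.7 CPM in the middle and 9.20 CPM at high CD150. In that of suffix 2 it was 14.8 CPM (12 UMIs, 7.64 to 25.8), 6.96 CPM and 7.08 CPM (5.33 to 9.21), and the intervals of the outer 2 overlapped. The CD48 tag was lower at high CD150 within this bin as well, with medians of 182, 181 and 140 in suffix 1 and 42, 32.5 and 24 in suffix 2. Cd84 in the same squares of suffix 2 was 73.9, 76.2 and 96.0 CPM, but in suffix 1 it was 82.3, 68.4 and 75.4 CPM, with no order along CD150.

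Slamf6 and Slamf7 were rare. Slamf6, the receptor known in mice as Ly108 on lymphocytes, had 14 UMIs in 12 cells of suffix 1 and 25 UMIs in 23 cells of suffix 2. The highest CD48 decile held 7 and 12 of these UMIs and the lowest 0 and 0. The top 2 CD48 deciles held 9 of 14 and 18 of 25, where 29.8% and 30.1% of all UMIs lay, and the top 2 CD150 deciles held 0 and 0. Cells with a Slamf6 UMI had a median of 852 CD48 tags against 265 in the other cells and a median depth of 26983 against 14928 UMIs. Leaving the immunoglobulin-rich cells aside, the lymphoid-primed marker list (Dntt, Flt3, Il7r, Rag1, Rag2, Ighm) summed to 2304 CPM in the 33 cells with Slamf6 and 432.4 CPM in those without. Other lists moved as well. The dendritic list was 100.7 against 4.84 CPM, with a UMI in 42.4% against 2.89% of cells, the cycling list 1753 against 727.6 CPM, the myeloid-primed list 1585 against 1001 CPM and the stem cell list 144.3 against 580.3 CPM. Their part in the Slamf6 values was not tested.

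Slamf7, the self-binding receptor CD319 of plasma cells, NK cells and some myeloid cells, had 92 UMIs in only 24 cells, 5 of suffix 1 and 19 of suffix 2. It was not spread thinly, since 18 cells with 3 or more UMIs held 82 of them. All 12 immunoglobulin-rich cells had Slamf7 UMIs, 52 in total. The other 12 Slamf7 cells held 40 UMIs and differed from the LSK majority in their markers. Xcr1 and Clec9a, receptors that define cross-presenting dendritic cells, had UMIs in 8 and 9 of these 12 cells, against 4 and 8 of 3962 cells without Slamf7. The dendritic list as a whole was 677.6 CPM in them against 3.65 CPM, with Cd209d and Cox6a2 at 0 and Siglech in 2 cells. Other lists differed as well, the cycling list at 1602 against 737.5 CPM and the myeloid-primed list at 211.3 against 1011 CPM. The T and NK cell list summed to 259.1 against 143.9 CPM, but fewer cells had a UMI of it, 25% against 60.7%. Its UMIs included 44 of Nkg7 in 3 cells and 20 of Ncr1 in 1 cell. Flt3 had UMIs in 11 of the 12 cells and Ighm in 10, against 56.0% and 31.7% of the cells without Slamf7. Dntt was in 1, against 28.3%, Il7r in 1, and Rag1 and Rag2 in 0. The lymphoid-primed list as a whole was 434.5 against 456.3 CPM. The stem cell list (Procr, Hlf, Mecom, Fgd5, Hoxb5, Ctnnal1, Pdzk1ip1) was 55.8 against 576.6 CPM. Kit UMIs were found in 8 and Ly6a UMIs in 9 of the 12. No Slamf7 UMI lay in the top 2 CD150 deciles of either library (0 of 15 and 0 of 77). The highest CD48 decile held 12 of 15 and 30 of 77, where 16.5% and 17.2% of all UMIs lay. In suffix 2 Slamf7 was 4.01 CPM there and 4.65 CPM in the sixth CD48 decile (18 UMIs), while the eighth and ninth held 1 and 2 UMIs.

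**Figure D5:**
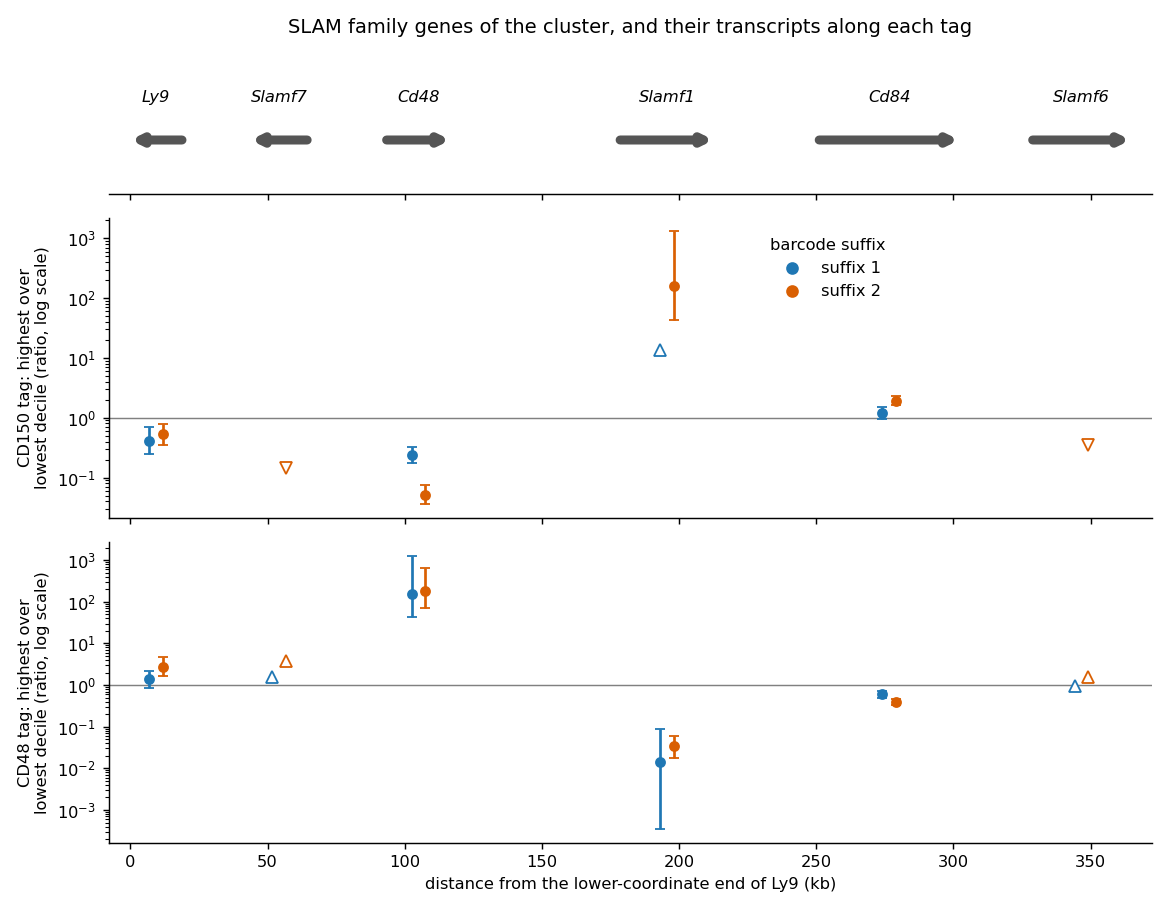
The 6 SLAM family genes drawn to scale along the cluster (arrows point in the direction of transcription) above the ratio of their CPM in the highest over the lowest decile of the CD150 and CD48 tags, log scale, with exact 95% intervals. Open triangles are bounds against a floor of 3 UMIs, pointing up for a lower bound (13.8 for Slamf1 in suffix 1) and down for an upper bound, and the grey line marks a ratio of 1. All values drawn for Slamf6 and Slamf7 are such bounds. The neighbours Cd48 and Slamf1 lie on opposite sides of the line for both tags.

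The members were read against 9472 genes with a UMI in at least 10% of the cells, a filter that did not use the tags but was set over both libraries together. The 4 members that passed were Slamf1, Cd48, Ly9 and Cd84. Slamf1 passed at 12.3% of cells through suffix 2 (17.2%, against 4.28% in suffix 1), where most of its cells lay in the top CD150 deciles, so its count here supports nothing and its place among the genes is not given. On CPM with 10 added, 1 of these 4 members, Slamf1, was over 2-fold higher in the highest CD150 decile in both libraries, as were 1.35% of all genes, and 1, Cd48, was over 2-fold lower, as were 0.813% of all genes. Along CD48, 1 member was over 2-fold higher (Cd48, 3.80% of all genes) and 1 over 2-fold lower (Slamf1, 2.32% of all genes). The log2 ratio of Slamf1 along CD150 on this scale was 1.74 in suffix 1 and 2.96 in suffix 2. The log2 ratio of Cd48 along CD48 was 4.04 and 4.53, 8th from the top of all genes in suffix 1 and 9th in suffix 2. In comparison, the median over all genes was between -0.04 and 0.03 for both tags. Adding 10 to the CPM draws the ratios of genes of low CPM such as Slamf1 towards 1, so these values and places hold for this scale.

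On the same scale, genes were ordered by the log2 ratio of highest to lowest decile in whichever library lay nearer 0. A log2 ratio of 0 was used where the libraries differed in direction. By this order the 5 genes with the greatest ratio along CD150 were Apoe, Sult1a1, Pdzk1ip1, Mmrn1 and Tgm2. Apoe, a lipid carrier, was 560.7 against 25.4 CPM in suffix 1 and 1152 against 56.3 CPM in suffix 2. The 5 with the smallest ratio were Igkc, Dntt, Cd52, Flt3 and Wfdc17, of which Dntt, the polymerase of early lymphoid cells, went from 741.7 to 42.2 CPM and from 395.5 to 9.26 CPM. Of the Igkc UMIs, 98.1% lay in the 12 immunoglobulin-rich cells. Along CD48 the greatest ratios on that scale were those of Mpo, Ube2c, Ctsg, Igkc and Mki67, and the smallest those of Meg3, Pdzk1ip1, Sult1a1, Tgm2 and Mmrn1. Mpo, the myeloperoxidase of granulocyte precursors, went from 0.56 to 381.2 CPM in suffix 1 and from 1.40 to 762.7 CPM in suffix 2.

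By the shape of the decile curve, with each library centred, the 5 genes most like Slamf1 along CD150 were Vwf (Pearson r 0.99 over 20 bins), Plcl1 (0.99), Ifitm3 (0.98), Gadd45g (0.98) and Tm4sf1 (0.98). On the same measure Cd84 had r 0.94, Ly9 -0.82 and Cd48 -0.96. The 5 most like Cd48 along CD48 were Bex6, Ndufa4, BC035044, Rcc2 and Dntt, with r from 0.98 to 0.99. There Ly9 had r 0.78, Cd84 -0.95 and Slamf1 -0.86. These bins share their cells and libraries, and r is given as a description.

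Of 14 partner genes of the family, 8 passed the filter of 10% of cells. Cd244, the receptor of CD48, was over 2-fold higher at high CD48 in both libraries on CPM with 10 added, and no other partner was past 2-fold on that scale in both libraries for that tag (3.80% of all genes higher, 2.32% lower). The plain ratios of CPM that follow are greater for genes of low level. It was 19.9 against 3.34 CPM in suffix 1, 5.95-fold (2.63 to 16.7). In suffix 2 it was 29.6 against 0.35 CPM, the latter a single UMI, a ratio of 84.3 with an interval of 15.0 to 3344. Thus the transcripts of CD48 and of its receptor were both higher in cells with many CD48 tags, although Cd244 in suffix 2 was no higher in the tenth decile than in the eighth (29.6 and 33.4 CPM). Along CD150 Cd244 ran from 28.2 to 1.19 CPM in suffix 2 and from 15.2 to 2.96 CPM in suffix 1. These plain ratios were 23.7-fold and 5.15-fold lower, while on CPM with 10 added 0 of 8 partners were past 2-fold along CD150 in both libraries in either direction (1.35% and 0.813% of all genes).

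The signalling partners had smaller ratios. Fyn, the kinase recruited by the adaptor SAP, was 25.6 against 30.2 CPM from lowest to highest CD48 decile in suffix 1 and 27.0 against 27.7 CPM in suffix 2, within counting error. Ptpn6, Ptpn11, Inpp5d and Vav1, the phosphatases and exchange factor that act below the receptors, had ratios along CD48 between 0.911 and 1.37. Along CD150 these were between 0.677 and 0.995. Intervals left out 1 in both libraries for Inpp5d along CD48, at 1.26 (1.01 to 1.58) and 1.37 (1.13 to 1.67). They did so too for Vav1 along CD150, at 0.735 (0.582 to 0.929) and 0.678 (0.556 to 0.824). Lyn, a kinase of the same family as Fyn, was 43.2 against 19.0 CPM from lowest to highest CD150 decile in suffix 2, a ratio of 0.439 (0.334 to 0.573), and 50.2 against 39.2 CPM in suffix 1 with an interval that held 1. Along CD48 the ratio of Lyn was 1.63 (1.26 to 2.13) in suffix 2 and 1.30 (0.977 to 1.74) in suffix 1. Prkcq, a protein kinase C engaged by SLAM signalling in T cells, was lower at high CD48, by 2.17-fold in suffix 1 and 2.86-fold in suffix 2 on plain CPM, and higher at high CD150, at 1.86-fold (1.28 to 2.77) and 1.50-fold (1.17 to 1.93). The adaptor genes were close to absent, with 1 UMI of Sh2d1a (SAP), 25 of Sh2d1b1 and 0 of Sh2d1b2, and Cd2, another binding partner of CD48, had 3 UMIs in 1 cell. Slamf8 had UMIs in 3.09% of cells and Slamf9 in 0.602%.

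The cells along the tags differed in more than the SLAM genes. From the lowest to the highest CD48 decile the summed stem cell list went from 992.9 to 267.2 CPM in suffix 1 and from 1215 to 137.7 CPM in suffix 2. The cycling list (Mki67, Top2a, Ube2c, Birc5, Ccnb1, Cdk1) went from 83.6 to 1748 CPM and from 16.1 to 1522 CPM. The myeloid-primed list (Mpo, Elane, Prtn3, Ctsg, Ms4a3, Csf1r) went from 533.8 to 1460 CPM and from 977.5 to 2430 CPM. Along CD150 the stem cell list went from 510.9 to 867.2 CPM and from 297.3 to 1135 CPM. The cycling list had no steady direction along CD150 in suffix 1, at 660.4 CPM in the lowest, 974.8 in the seventh and 827.6 in the highest decile. In suffix 2 it was 650.9 CPM in the lowest decile, 1000 CPM in the third and 43.9 CPM in the highest. The erythroid and megakaryocyte-primed list (Gata1, Klf1, Pf4, Itga2b, Car1, Zfpm1) went from 41.8 to 306.5 CPM in suffix 1. In suffix 2 it went from 77.9 to 167.4 CPM, with a peak of 539.4 CPM in the eighth decile. The myeloid-primed list went from 550.4 to 413.1 CPM and from 1375 to 996.3 CPM. It peaked at 1842 CPM in the fourth decile of suffix 1 and 1775 CPM in the fifth of suffix 2. The lymphoid-primed list, which holds the immunoglobulin gene Ighm, went from 3205 to 104.4 CPM and from 719.6 to 40.6 CPM along CD150, where the lowest bins held 1 and 3 immunoglobulin-rich cells and the highest 0. Along CD48 it went from 93.1 to 1897 CPM and from 22.1 to 753.7 CPM, with 1 such cell in each highest bin. The median depth was within 13612 to 16876 UMIs over the CD150 deciles of suffix 1 and 13324 to 17519 over those of suffix 2. Cells that held a UMI of Mki67, Top2a, Ube2c or Birc5 were also left out. Cd48 was then 124.7-fold higher along CD48 in suffix 1 and 93.4-fold in suffix 2, against 155-fold and 181-fold with all cells. Slamf1 along CD150 was 72.8-fold higher in suffix 2, against 158-fold, and at least 8.11-fold in suffix 1, against at least 13.8-fold. The part of cycling in these values was not tested.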

How the data were processed

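LSK cells of 1 old and 1 young pool of C57BL/6JRj mice were profiled by CITE-seq, with Chromium 3′ v3 libraries. The authors deposited UMI counts per gene and cell, made with Cell Ranger 3.1.0 (per the labels, with builds mm10 and GRCm38) and joined into 1 matrix, and tag values made with CITE-seq-Count. The deposited tag values were log10 of tag counts, with minus infinity for 0, and were turned back into counts, 100% of which were whole within 1e-06. How the isotype controls were handled is not given in the sources used here, and they were not analysed here.

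Cells were kept with under 10% mitochondrial UMIs and over 1500 genes, leaving 4068, of which 3986 had tags. Scrublet doublets (scanpy 1.11.5, expected rate 0.06) stayed in and were left out as an alternative. Summed counts carry exact Poisson intervals, shares Clopper-Pearson intervals and ratios exact conditional binomial intervals (scipy 1.17.1), all at 95%. A bin of 0 UMIs was set to 3 for a bound. For shares at equal depth, cells were thinned to 9000 UMIs, which left out 216 cells. All genes were compared on log2(CPM + 10). The ratio calculation was tested on simulated data. UMIs of 1 library are not replicates of an age, so no p-value was computed. The precision is set by the UMIs behind each value, 27073429 in suffix 1 and 43434366 in suffix 2.

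Genes named are the members, the listed partners, the 5 leading genes at each end of each tag and the 5 with the most similar curve. The members and lists were chosen with earlier results of these data known. The 3 crossed bins of both tags and the ranges of equal tag counts were added after seeing the data. Promoters were matched by symbol to RefSeq for 5 of the 6 members, and Ly9 was not matched. Alternatives covered the cell filter, doublets, immunoglobulin-rich cells, cycling cells, depth, tag scaling and bin width. A gene of the stem cell list was left out of its sums and is not reported here.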

Additional observations from a re-analysis of the deposited data

How the results depend on the processing

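Under 13 alternatives each, Slamf1 along CD150 and Cd48 along CD48 kept their direction in both suffixes. For Slamf1 in suffix 1 each value was a lower bound against 0 UMIs in the lowest bin, and all of these bounds were above 1. A stricter cell filter (under 5% mitochondrial UMIs, over 2500 genes) gave at least 2.86-fold for Slamf1 in suffix 1 and at least 6.64-fold in suffix 2, and 28.9-fold and 43.0-fold for Cd48, from far fewer cells. Slamf1 in suffix 1 was at least 9.13-fold with cells thinned and at least 8.11-fold without cells that held a UMI of 4 cycling genes. These bounds drop with the UMIs summed in a bin. Cd48 in suffix 1 was 27.6-fold with tags divided by reads that matched no antibody, 40.8-fold with 5 bins of the tag, 14.8-fold in deciles drawn within bins of UMIs per cell and at least 7.19-fold in deciles over both libraries together, where its lowest bin held 13 cells. The cause of the other shifts was not tested. Depth bins without cycling cells, an alternative added after seeing the data, gave 131.1-fold and 202.4-fold for Cd48.

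For the 12 other ratios of Slamf1, Cd48, Ly9 and Cd84, 152 of 155 values kept their direction. The 3 that did not were for Cd84 along CD150 (0.955 and 0.992) and Ly9 along CD48 (0.693) in suffix 1, whose reported intervals held 1. Other alternatives gave these ratios an interval above 1, Cd84 in 4 (1.19 to 1.51) and Ly9 in 3 (1.51 to 2.70). Slamf6 and Slamf7 are not counted. Their reported ratios were bounds against 0 UMIs, of which at least 0.936 for Slamf6 along CD48 in suffix 1 gives no direction. Slamf7 along CD48 in suffix 1 had a plain ratio of 0.616 (0.104 to 4.20) under the stricter filter, from 4 against 3 UMIs. Its highest value over the alternatives was 3.52. Along CD150 in suffix 2, Cd84 ranged from 1.73 to 2.99 and Ly9 from 0.166 to 0.576, with 2.99 and 0.166 under the stricter filter. Of the 155, 36 fell outside the counting interval of the reported value. No paired analysis was possible because each age had 1 library.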
